A study of Limonium bicolor with 5 samples.

Results

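HKT1, SOS1 and the sodium/proton exchangers of Limonium bicolor were followed through leaf development. Limonium bicolor is a plant of saline soils that secretes salt through glands on its leaves. Genes were taken by the Arabidopsis locus paired with each Limonium gene in the deposited table: HKT1, SOS1, NHX1 to NHX6, NHX8 and the locus AT1G49810, described as Na+/H+ antiporter 2. All 10 loci were present among the 18327 genes of the table. The table's descriptions name all 10 as a high-affinity K+ transporter or a Na+/H+ exchanger, and SOS1 as NHX7. Gene names are those of Arabidopsis, and whether the Limonium proteins do the same work was not measured.

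Leaves came from tissue culture and were the first true leaves of the plant; the labels name no salt treatment. Stage A was the undifferentiated leaf, stage B the leaf with differentiated salt glands, stage C with differentiated stomata, stage D with a differentiated epidermis, and stage E the mature leaf. About 5000, 4000, 2000, 1000 and 1000 leaves were pooled for stages A to E, per the labels, and poly(A) RNA was sequenced. The table holds 1 column per stage although the labels speak of 2 lanes each, so no spread between replicates is known and no test was possible. Values are RPM, reads corrected for library size but not for the length of the gene, so each gene is compared with itself across stages and not with other genes. Since the RNA came from whole leaves, fewer cells of a type and less RNA per cell cannot be told apart.

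Sodium that reaches a leaf is handled at several membranes. In Arabidopsis, HKT1 lets sodium back out of the xylem sap into neighbouring cells and so limits what arrives in the blade. SOS1 is a plasma membrane exchanger that pushes sodium out of cells in return for protons, and it is switched on by the kinase SOS2 together with a calcium sensor, SOS3 or CBL10. NHX1 to NHX4 sit on the vacuole and NHX5 and NHX6 on Golgi and endosomal compartments, where they trade potassium or sodium for protons and set the local pH. All of these exchangers run on proton gradients built by proton pumps.

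The libraries held 5939374, 16556653, 14286009, 16367754 and 12945184 reads for stages A to E. A gene was said to rise or fall when log2(RPM + 1) differed by at least 1 and the higher stage reached 5 RPM. Folds are ratios of RPM, with the exact 95% interval from the reads, which covers counting error only. Stage C stood apart by chromosome: loci of Arabidopsis chromosome 1 took 40.4% of its reads against 24.4% to 28.3% in the other stages, and loci of chromosome 5 took 15.1% against 22.0% to 25.0%. Stage C values are therefore set beside values with the median of the same chromosome taken off, and beside sums over related loci.

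HKT1 (AT4G10310, Limonium gene LB11758) was the member that changed most. It stood at 3.20, 3.62, 6.44, 21.5 and 161 RPM in stages A to E. The mature leaf was thus far above every younger stage, and stages A and B could not be told apart by their reads (ratio 1.13, interval 0.667 to 2.01). Behind these values lay 19, 60, 92, 352 and 2081 reads.

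Most of the increase in HKT1 came in the last step. HKT1 rose 3.34-fold from stage C to stage D (2.65 to 4.25) and 7.47-fold from stage D to stage E (6.67 to 8.39). Stage D against stage B, which steps over stage C, gave a 5.93-fold rise (4.50 to 7.94). From stage B to stage C the ratio was 1.78 (1.27 to 2.50), short of the rule, though it passed once the chromosome 4 median was taken off. Of 18165 genes tested (those that reached 1 RPM in any stage), 104 had a larger log2 difference from stage D to stage E and 38 a larger one from stage A to stage E, where HKT1 stood at 5.27. HKT1 gave 0.514% of the reads of the 10 loci in stage A and 20.1% in stage E, a share of reads that also depends on gene length.

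**Figure D1:**
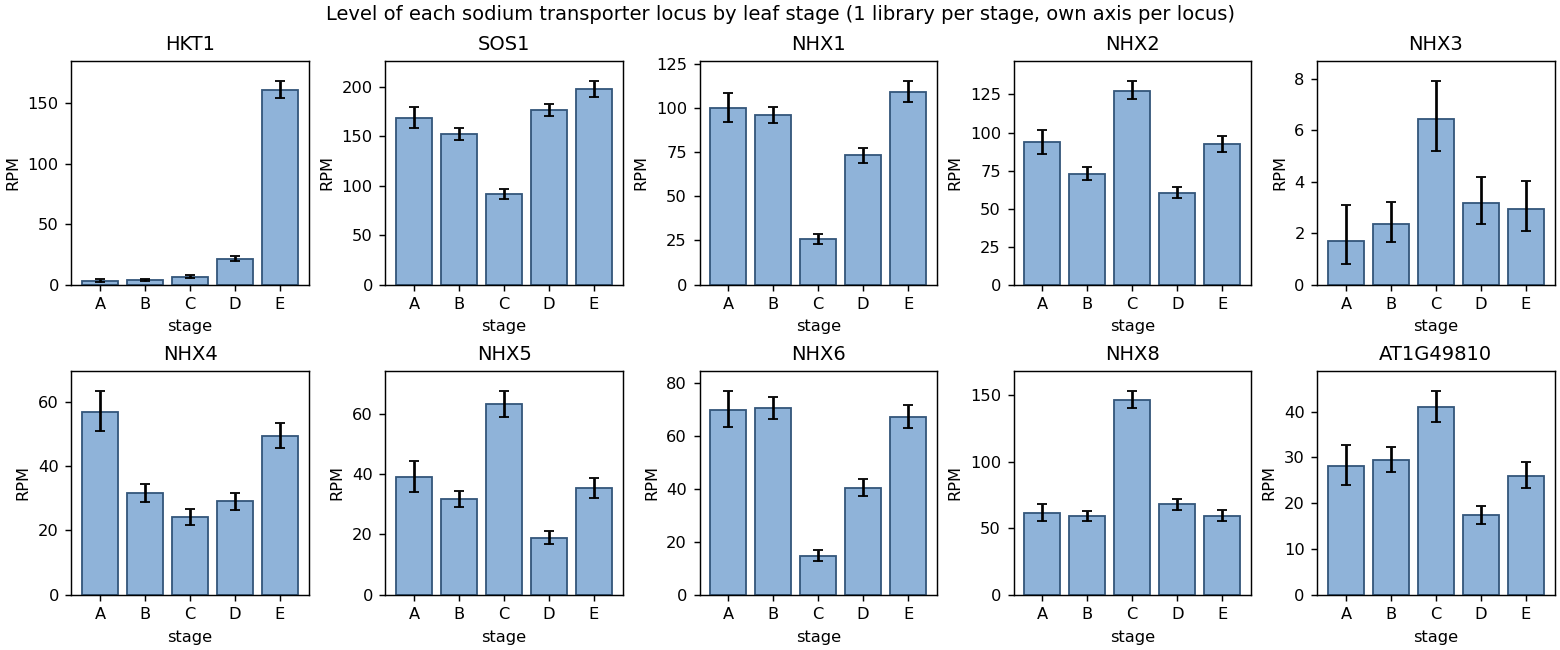
RPM of each of the 10 loci (vertical axis from 0, own scale per locus) in stages A to E, with 1 library per bar and exact 95% counting intervals as error bars. HKT1 climbs to 161 RPM in stage E, while the stage C bar stands out upward or downward in most exchangers.

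SOS1 (AT2G01980) was read in every stage at a steady level apart from stage C. It stood at 169, 153, 91.8, 177 and 198 RPM in stages A to E. Stage E was highest and stage C lowest, and stages D and A could not be told apart by counting (ratio 1.05, 0.972 to 1.12). No comparison of SOS1 passed the rule. The largest was stage D against stage C, at a log2 difference of 0.94, which passed after median-of-ratios scaling (1.02) and after the chromosome 2 median was taken off (1.18). Between stages A and E the ratio was 1.17 (1.09 to 1.26).

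NHX8 (AT1G14660), the exchanger most like SOS1 in Arabidopsis, where it has been linked to lithium export, went the other way in stage C. Its levels were 61.6, 59.0, 146, 67.9 and 59.5 RPM in stages A to E. NHX8 rose 2.48-fold into stage C (2.30 to 2.68) and fell 2.16-fold out of it (2.01 to 2.32); the fall no longer passed once the chromosome 1 median was taken off. Outside stage C its highest and lowest stages differed 1.15-fold.

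NHX1 (AT5G27150), the vacuolar exchanger known for salt tolerance when overexpressed in plants, was low in stage C. It stood at 100.2, 95.9, 25.8, 73.1 and 109 RPM in stages A to E. NHX1 fell 3.71-fold from stage B to stage C (3.31 to 4.17) and rose 2.83-fold from stage C to stage D (2.52 to 3.19). Chromosome 5 loci as a whole had a median log2 difference of -0.69 from stage B to stage C; NHX1 stood at -1.85, or -1.17 relative to that median. Stages E and A could not be told apart by counting (ratio 1.09, 0.990 to 1.20).

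NHX2 (AT3G05030), which acts alongside NHX1 in vacuolar potassium uptake in Arabidopsis, was highest in stage C. It stood at 93.4, 72.8, 128, 60.4 and 92.6 RPM in stages A to E. The step into stage C was 1.75-fold (1.63 to 1.89), short of the rule in the deposited values but past it after scaling (1.11) and after the chromosome 3 median was taken off (1.12), and NHX2 fell 2.11-fold from stage C to stage D (1.95 to 2.28). That fall was just outside the rule after median-of-ratios scaling (-0.99). Stages A and E stood within counting error of each other (ratio 0.991, 0.896 to 1.10).

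NHX4 (AT3G06370) was the exchanger with the largest difference between stages A and B. It stood at 56.7, 31.5, 24.0, 29.0 and 49.4 RPM in stages A to E. Stage A was highest, stage C lowest, and stages B and D could not be told apart by counting (ratio 0.920, 0.811 to 1.04). Stage B was 1.80-fold under stage A (1.56 to 2.07), a log2 difference of -0.83 that misses the rule; scaling put it at -0.97. NHX3 (AT5G55470), a close relative, was scarce, at 1.68, 2.36, 6.44, 3.18 and 2.94 RPM in stages A to E. NHX3 rose 2.73-fold into stage C (1.86 to 4.08), from 39 to 92 reads, a call lost with a pseudocount of 5 or when the whole interval had to lie beyond 2-fold.

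The endosomal exchangers lay on opposite sides of their other stages in stage C. NHX5 (AT1G54370) stood at 38.9, 31.7, 63.1, 18.9 and 35.4 RPM in stages A to E. NHX6 (AT1G79610), which overlaps with NHX5 in function in Arabidopsis, stood at 69.9, 70.6, 14.6, 40.5 and 67.4 RPM in stages A to E. Stage C was thus the highest stage of NHX5 and the lowest of NHX6. NHX6 fell 4.83-fold into stage C (4.16 to 5.62) and rose 2.77-fold out of it (2.37 to 3.25). NHX5 was 1.99-fold higher in stage C than in stage B (1.79 to 2.22), just short of the rule, past it after scaling (1.28) and at 0.74 once the chromosome 1 median was taken off, and fell 3.33-fold from stage C to stage D (2.93 to 3.81). Both are loci of chromosome 1, whose median log2 difference from stage B to stage C was 0.23; of the 4859 tested genes there, 136 had a lower value than NHX6.

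AT1G49810, the locus described as Na+/H+ antiporter 2, stood at 28.1, 29.5, 40.9, 17.4 and 26.0 RPM in stages A to E. Stage C was highest and stage D lowest. It fell 2.36-fold from stage C to stage D (2.04 to 2.73), a call lost once the chromosome 1 median was taken off (-0.69). No sum with a related locus was formed for it, so whether this fall would remain in such a sum was not tested. Over all 10 loci there were 40 neighbouring stages in the order of levels, and in 18 of them the interval of the ratio held 1.

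The step from the undifferentiated leaf to the leaf with salt glands moved none of the 10 loci past the rule. The same rule called 10.6% of all tested genes in stage B against stage A. The median log2 difference of the 10 loci was -0.06, from -0.83 for NHX4 to 0.32 for NHX3, beside 0.10 for all genes. In the deposited values 4 loci lay above 0 and 6 below; after scaling, which shifts this comparison by -0.15 on the log2 scale, the split was 2 and 8.

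Steps into and out of stage C called the most members. In stage C against stage B, NHX3 and NHX8 rose, NHX1 and NHX6 fell, and 6 loci did not pass; the background was 15.3% of genes higher and 23.0% lower. In stage D against stage C, HKT1, NHX1 and NHX6 rose, NHX2, NHX5, NHX8 and AT1G49810 fell, and 3 did not pass, with 17.4% of genes higher and 19.5% lower. Scaling and the chromosome correction each gave 4 higher and 2 lower in the first comparison and 4 higher and 3 lower in the second. Both comparisons use the same stage C library, so they are not independent of each other. In stage D against stage B, where that library plays no part, HKT1 was the 1 member to pass, against 30.0% of all genes.

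**Figure D2:**
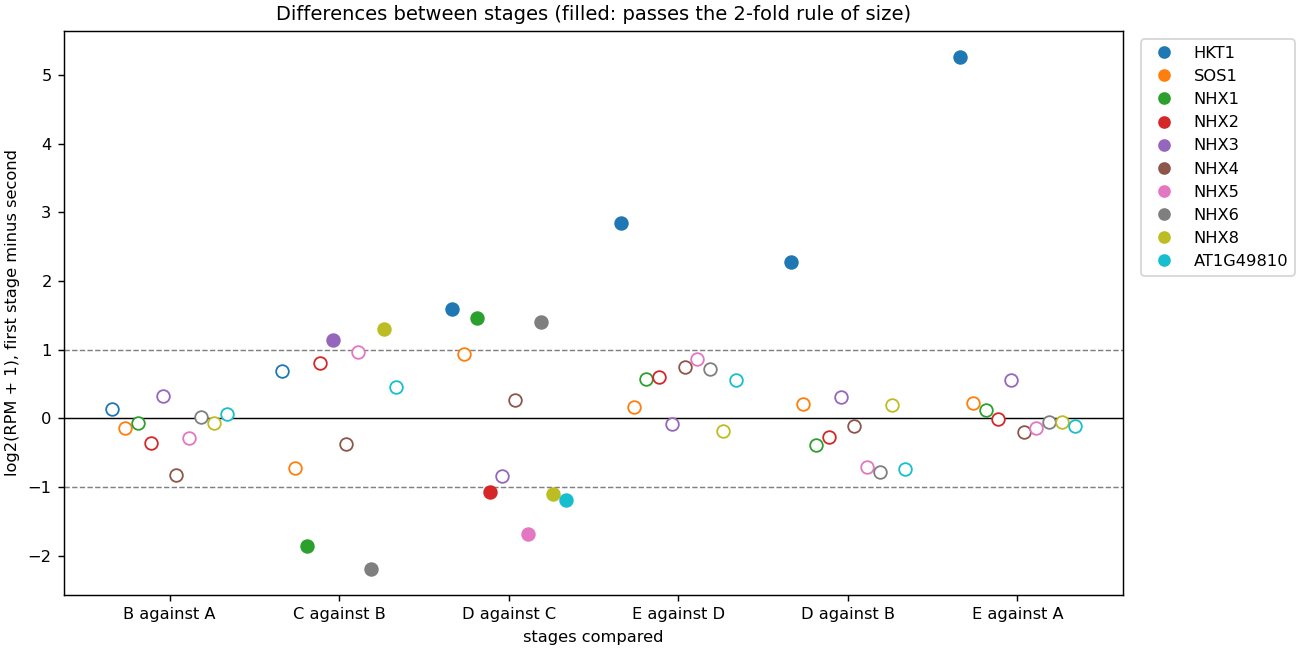
Difference in log2(RPM + 1) of each locus (vertical axis, first stage minus second) in the 6 comparisons, filled where the 2-fold rule of size is met and with dashed lines at 1 and -1. Among the comparisons without stage C, no locus is filled in B against A and HKT1 alone in the other 3, while the comparisons with stage C scatter to both sides.

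Sums over related loci differed less between stages than the single loci that passed the rule. NHX1 and NHX2 together stood at 194, 169, 153, 134 and 202 RPM in stages A to E. SOS1 and NHX8 together stood at 230.5, 212, 238, 244 and 257 RPM in stages A to E. NHX5 and NHX6 together stood at 109, 102, 77.8, 59.4 and 103 RPM in the same order. The stage C highs and lows of single loci were gone from these sums: into stage C, the NHX1 and NHX2 sum differed by -0.14 on the log2 scale, the SOS1 and NHX8 sum by 0.17 and the NHX5 and NHX6 sum by -0.39.

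What differed in stage C was the division of reads within each set of relatives. NHX1 held 51.7% to 56.9% of the NHX1 and NHX2 reads in stages A, B, D and E and 16.8% in stage C. SOS1 held 72.1% to 76.9% of the SOS1 and NHX8 reads in those stages and 38.5% in stage C. NHX5 held 31.0% to 35.8% of the NHX5 and NHX6 reads there and 81.2% in stage C. NHX3, scarce throughout, held 2.88% to 9.87% of the NHX3 and NHX4 reads there and 21.1% in stage C. Of 24 values from these 4 sums in 6 comparisons, 0 passed the rule, and the largest log2 difference was 0.78. In the comparisons without stage C none of the summed loci had passed singly. Only the comparisons with stage C therefore had calls to lose. The sums were chosen after the single values had been seen. Opposite values in stage C were not particular to these loci. The potassium/proton exchanger KEA1 stood at 38.8, 84.2 and 40.2 RPM in stages B, C and D, and KEA2 at 69.9, 20.3 and 69.1. Of 7 listed plastid and potassium exchangers 2 rose and 3 fell from stage B to stage C, beside 15.3% of genes higher and 23.0% lower. Whether reads of similar genes were assigned differently in stage C was not tested.

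**Figure D3:**
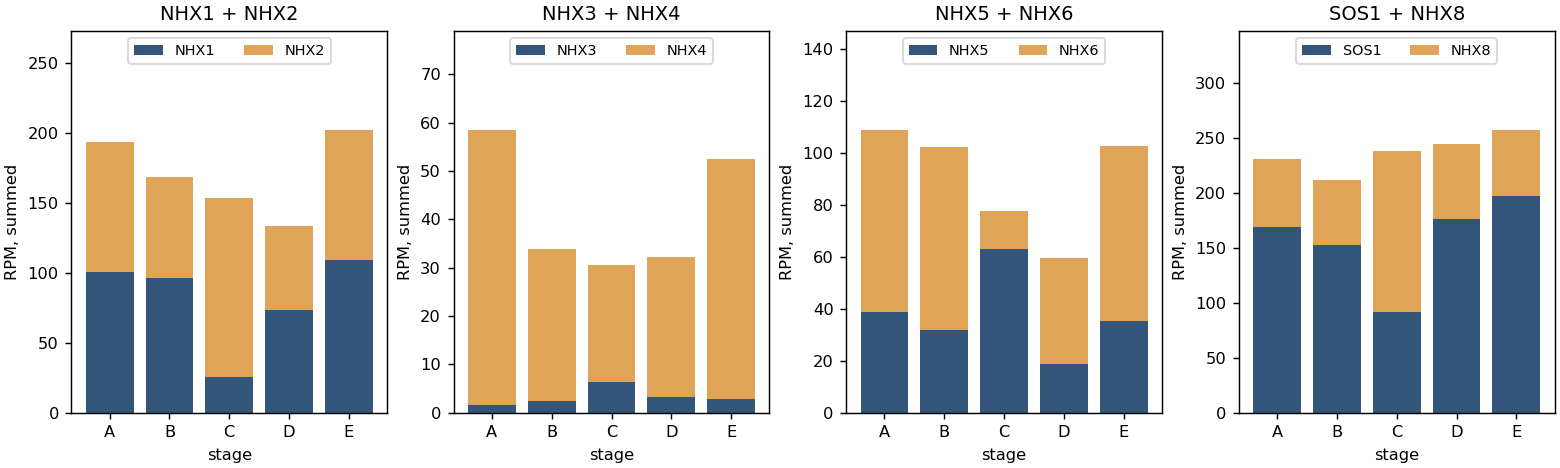
Stacked RPM (vertical axis from 0) of NHX1 with NHX2, NHX3 with NHX4, NHX5 with NHX6, and SOS1 with NHX8 in stages A to E. Within NHX1 with NHX2, NHX5 with NHX6 and SOS1 with NHX8 the colours swap their larger and smaller shares in stage C, while the SOS1 with NHX8 total stays between 212 and 257 RPM.

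In stage E against stage D, the mature leaf, 8 of the 10 loci lay higher and 1, HKT1, passed the rule, beside 13.1% of all genes called higher and 6.65% lower. NHX1, NHX2, NHX4, NHX5, NHX6 and AT1G49810 were 1.49-fold to 1.87-fold higher without passing. All genes had a median log2 difference of 0.28 here, and scaling, which shifts this comparison by -0.37, left 7 loci above 0. NHX5 was the exchanger nearest to the rule, at 0.87 on the log2 scale and 0.52 after scaling.

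Across the whole series, stage E against stage A, HKT1 was again the 1 member called, beside 18.6% of genes higher and 13.7% lower. All exchangers except scarce NHX3 ended close to where they began: the ratios of stage E to stage A for these 8 loci lay between 0.871 for NHX4 and 1.17 for SOS1. Of 15603 genes that reached 5 RPM, 16.5% lay as near to their stage A value. NHX3 stood 1.74-fold higher in stage E, with an interval that holds 1 (0.852 to 3.92).

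Over stages A, B, D and E the 9 exchangers also varied less than most genes. NHX8 spanned 0.20 on the log2 scale, SOS1 0.37, NHX1 0.57, NHX2 0.62 and NHX4 0.94, against a median span of 1.33 over the 15603 genes. A span smaller than that of NHX8 was found in 0.820% of genes, and one smaller than that of NHX5, the widest of the 9, in 31.9%. HKT1 spanned 5.27, and 99.0% of genes spanned less. With all 5 stages, NHX1 spanned 2.04 and NHX6 2.20, both above the median of 1.91.

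Genes of vascular tissue were compared with HKT1, since HKT1 works around the vessels in Arabidopsis. All 5 phloem markers rose from stage A to stage E, beside 18.6% of all genes, and their summed level was 33.5, 43.0, 128, 651 and 2303 RPM in stages A to E. SUC2, which loads sucrose into the phloem, went from 10.6 to 147 RPM between stages A and E (13.9-fold, 10.8 to 18.2). The sugar exporters SWEET11 and SWEET12 reached 992 and 1026 RPM in stage E and made up most of the sum there. SEOR1, a sieve element protein, peaked in stage D at 208 RPM and was 1.71-fold lower in stage E at 122 RPM, short of the rule in the deposited values and past it after scaling. Xylem markers followed another course: their sum was 133, 223, 619, 557 and 253 RPM in stages A to E, and 4 of 7 fell from stage D to stage E, beside 6.65% of all genes, while HKT1 rose. Those 4 were XCP1, XCP2, LAC4 and LAC17. The cellulose synthase genes IRX1, IRX3 and IRX5 did not pass in that step. None of these markers was at 0 in any stage. The part of vascular cell number in the HKT1 result was not tested.

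**Figure D4:**
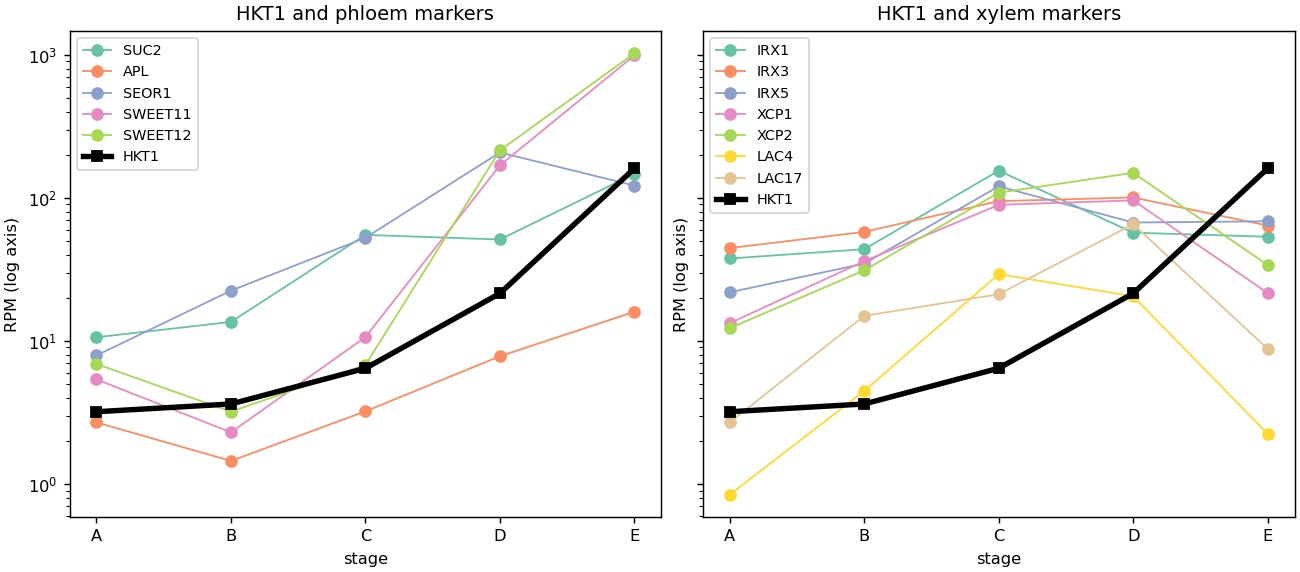
RPM on a log axis of HKT1 (black squares) beside 5 phloem markers (left) and 7 xylem markers (right) in stages A to E, 1 library per point. HKT1 and the phloem markers SUC2, APL, SWEET11 and SWEET12 reach their highest values in stage E, SEOR1 goes from 208 RPM in stage D to 122 in stage E, and XCP1, XCP2, LAC4 and LAC17 lie lower in stage E than in stage D.

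Other cell types were checked through their own markers. The 6 guard cell markers summed to between 72.4 (stage B) and 179 RPM (stage E); from stage A to stage E 2 rose, 1 fell and 3 did not pass, beside 18.6% of genes higher and 13.7% lower. Both shoot meristem markers, STM and KNAT1, fell from stage A to stage B, beside 3.10% of all genes. They summed to 14.8 RPM in stage A and to between 0.183 and 1.39 RPM in later stages. Of the 2 senescence markers, SAG12 did not pass and was highest in stage C at 4.27 RPM, with 0.0772 RPM in stage E. SAG13 rose from 2.02 RPM in stage A to 6.10 RPM in stage E (3.02-fold, 1.64 to 6.09).

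By the root mean square difference of their centred log2(RPM + 1) profiles over the 5 stages, the genes most like HKT1 were the plastid gene for photosystem II reaction center protein A (0.20), a major facilitator superfamily protein (AT3G01350, 0.27) and a VQ motif-containing protein (AT1G78410, 0.34). The plastid gene, read here in poly(A) libraries, went from 14.1 RPM in stage A to 801 in stage E. None of the exchangers came near HKT1: the closest, SOS1, was at 1.81, ranked 4225 among the 15602 other genes that reached 5 RPM. The profiles were centred but not scaled to a common range, so the size of a change counts too. With 5 points per profile, likeness is easily reached in a table of this size.

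Nearest to SOS1 were ABI-1-like 1 (AT2G46225, 0.05), a pentatricopeptide repeat protein (AT3G56550, 0.05) and the chloroplast import protein TOC64-III (AT3G17970, 0.07). Nearest to NHX1 were a CRM domain protein (AT4G29750, 0.04), acyl-CoA binding protein 1 (AT5G53470, 0.04) and a nucleotide/sugar transporter (AT2G30460, 0.07). Nearest to NHX2 were mitogen-activated protein kinase kinase kinase 6 (AT3G07980, 0.07), subtilisin-like serine protease 3 (AT2G19170, 0.09) and an O-acetyltransferase (AT1G29890, 0.09). Among the members themselves NHX1 and NHX6 were the most alike (0.15), both low in stage C, followed by NHX2 and AT1G49810 (0.18), both high there. Many other genes were closer: NHX6 ranked 77 among the genes nearest to NHX1, and AT1G49810 ranked 89 among those nearest to NHX2.

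For the other members the single nearest gene was alpha-L-fucosidase 1 for NHX3 (0.04), an SGF29 tudor-like protein for NHX4 (0.06), TATA binding protein 2 for NHX5 (0.06), a C2H2-like zinc finger protein for NHX6 (0.07), a GH3 family protein for NHX8 (0.06) and an RHD3 GTP-binding protein for AT1G49810 (0.05).

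Several regulators of SOS1 differed between the libraries of the leaf stages. All 11 listed regulators were in the table, and from stage A to stage E 4 rose, 0 fell and 7 did not pass, beside 18.6% of genes higher and 13.7% lower, with a median log2 difference of 0.65 beside 0.09 for all genes. CBL10, the calcium sensor that works with SOS2 in Arabidopsis shoots, stood at 98.8, 135, 75.9, 293 and 235 RPM in stages A to E. It rose 2.38-fold from stage A to stage E (2.17 to 2.60) and 2.16-fold from stage B to stage D (2.06 to 2.27). From stage B to stage D it was the 1 regulator to rise, while GIGANTEA fell 3.37-fold (2.99 to 3.81) and MPK6 fell 2.07-fold (1.89 to 2.26); after scaling 1 rose and 1 fell, beside 10.5% of genes higher and 19.5% lower in the deposited values. SOS3, its counterpart in roots, did not pass in any comparison and lay between 23.6 and 53.5 RPM. SOS2, the kinase that activates SOS1, fell 2.06-fold from stage A to stage B (1.91 to 2.23), from 202 to 98.0 RPM, and was the 1 listed regulator to change there, beside 3.10% of genes lower.

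The other 3 regulators that rose from stage A to stage E were GRF6, GRF8 and CIPK11. GRF6 and GRF8, 14-3-3 proteins that hold SOS2 back in Arabidopsis, rose 2.30-fold (1.81 to 2.95) and 2.34-fold (2.08 to 2.63). GRF6 was highest in stage C, at 68.9 RPM against 25.2 in stage B and 22.7 in stage D. CIPK11, a kinase of the SOS2 family, rose 4.29-fold (3.02 to 6.26) from stage A to stage E. It stood far higher in stage C, at 79.9 RPM against 6.52 in stage B and 8.55 in stage D. Its log2 difference from stage B to stage C was 3.43, beside a median of -0.02 for chromosome 2 loci. No sum of CIPK11 with related loci was formed. GIGANTEA, a clock protein that binds SOS2, was lowest in stage D at 21.3 RPM and rose to 107 RPM in stage E (interval of the fold 4.45 to 5.64). MPK6, a kinase that acts on SOS1, rose 3.04-fold (2.79 to 3.32) and RCD1, a partner of SOS1, 2.33-fold (2.15 to 2.52) in the same step. With CIPK11 that makes 4 of 11 regulators called higher in the mature leaf against stage D, 3 after scaling, and 0 lower. In the deposited values 13.1% of all genes were called higher and 6.65% lower. GIGANTEA and MPK6 did not pass between stages A and E, where their ratios were 1.13 and 0.935. The hour of harvest of each stage is not known here. For GIGANTEA, a clock gene, leaf stage and time of day therefore cannot be told apart.

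Proton pumps of the plasma membrane build the gradient that SOS1 uses. Of 11 listed AHA genes 6 rose from stage A to stage E, 0 fell and 5 did not pass, with the same counts after scaling. The background was 18.6% of genes higher in the deposited values. Their median log2 difference was 1.57, against 0.09 for all genes. AHA5 went from 32.5 to 276 RPM (8.50-fold, 7.35 to 9.87) and AHA4 from 225 to 1023 RPM (4.55-fold, 4.30 to 4.81). From stage B to stage D 3 rose, 6 after scaling, and 0 fell, beside 10.5% of genes higher and 19.5% lower in the deposited values. Scaling shifts this comparison by 0.40 on the log2 scale for every gene, and the share of all genes after scaling was not computed. The most changed there were AHA5, at 3.30-fold (3.04 to 3.58), and AHA4, at 2.38-fold (2.29 to 2.47).

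**Figure D5:**
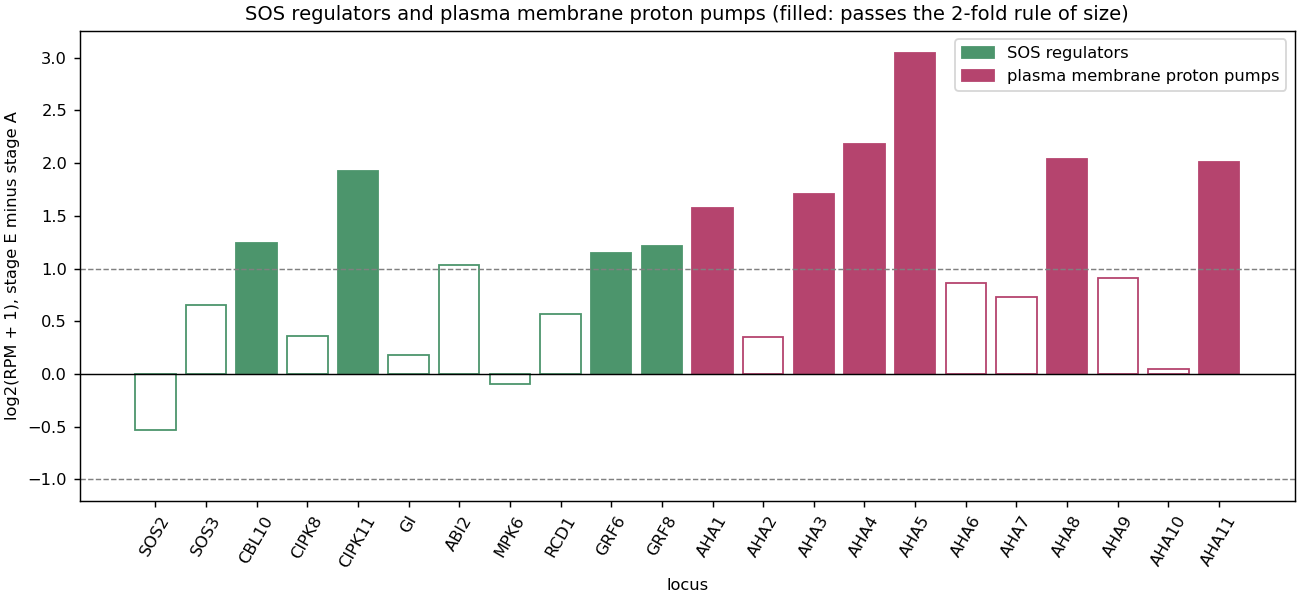
Difference in log2(RPM + 1) between stages E and A (vertical axis) for 11 SOS regulators (green) and 11 plasma membrane proton pumps (red), filled where the 2-fold rule of size is met, with dashed lines at 1 and -1. The 4 filled regulators and 6 filled pumps all lie above 1, while ABI2 lies above 1 but under 5 RPM.

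Pumps of the vacuole power NHX1 to NHX4. Of 24 listed genes 6 rose from stage A to stage B (3 after scaling) and 0 fell, beside 7.47% of genes higher in the deposited values. From stage A to stage E 3 rose and 0 fell, a share not above the 18.6% of all genes. VHA-G1, a subunit of the vacuolar ATPase, rose 2.56-fold between stages A and E (2.28 to 2.89) and VHA-c5, a subunit of its membrane ring, 2.77-fold (1.78 to 4.52). AVP1, the vacuolar pyrophosphatase, stood at 241, 503, 760.1, 856 and 478 RPM in stages A to E. From stage B to stage D 2 subunits fell, VHA-E1 2.13-fold (1.83 to 2.50) and VHA-E2 2.30-fold (1.82 to 2.92), against 0 after scaling, when 1 rose. In the deposited values the 2 were a share not above the 19.5% of all genes called lower.

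Among other exchangers, 2 of 7 listed for plastids and potassium rose from stage A to stage E and 0 fell, beside a background of 18.6% higher and 13.7% lower. These were KEA1, at 2.34-fold (1.91 to 2.89), and KEA2, at 2.85-fold (2.43 to 3.36), both potassium/proton exchangers of the chloroplast envelope in Arabidopsis. KEA3, their thylakoid relative, rose 2.48-fold from stage B to stage D (2.34 to 2.64) and then fell from 218 to 34.1 RPM in stage E (6.39-fold, 5.79 to 7.07). NHD1, the plastid sodium/proton exchanger, stood at 76.8, 81.8, 26.1, 54.3 and 68.8 RPM in stages A to E. Stage C was its lowest stage and the highest of AT1G49810. Of the 8 other CBL calcium sensors 1 rose from stage A to stage E, CBL8 at 2.47-fold (2.12 to 2.89), a share not above the 18.6% of all genes. Of 28 listed CHX exchangers 2 were matched in the table, CHX15 with at most 4.02 RPM and CHX20 with at most 0.505 RPM.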

How the data were processed

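Per the labels, poly(A) RNA was sequenced from 5 leaf stages, 1 sample each here. Per the file headers the values are RPKM, but the deposited values are RPM: in each stage a common step divides 100% of them into whole reads, to within 0.001 reads, and this gave the reads. For the aligner, the assembly and the counting of multiply matching reads, the method is not given in the sources used here. The members and lists were chosen with earlier results of these data known, and symbols were paired with loci by hand. From the RPM values, log2(RPM + 1) differences were computed with a pseudocount of 1, for 18165 genes that reached 1 RPM. With 1 sample per stage no p-value was computed. Named are all members, the nearest 3 genes of each by profile among those reaching 5 RPM (for 6 members the nearest 1), regulators called in any comparison, and the most changed of the other lists in stages E against A and D against B. Intervals are Clopper-Pearson for ratios of reads, and cover counting error only. Scaling is median-of-ratios. SciPy 1.17.1, pandas 2.3.3 and numpy 2.4.6 were used, and the rule and intervals were tested on simulated data. No sequence is shown since none was used here.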

Additional observations from a re-analysis of the deposited data

How the results depend on the processing

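No paired analysis was possible because each stage has 1 sample. No sample could be left out within a stage. For the 10 loci, 480 values were recomputed under 8 other settings: 456 stayed on their side of the rule, 17 calls were lost and 7 were gained, with 0 calls changing sign. A 4-fold rule left 1 changed locus of 4 in stage C against stage B and 0 of 7 in stage D against stage C. The other counts of changed loci stayed within 1.5 times. Summing with a relative, added after the values were seen, left 0 calls among the summed loci. In 4 of the lost calls the sign turned as well. NHX3 in stage C against stage B went to -0.15 with NHX4. NHX3 held 6.95% of those reads in stage B and 21.1% in stage C. That sum mostly follows NHX4 and cannot speak for NHX3. In stage D against stage C, NHX1 went to -0.20 with NHX2, NHX6 to -0.38 with NHX5 and NHX8 to 0.037 with SOS1. The highest stage differed for 2 loci after scaling, for 5 without stage C and for 3 after division by the chromosome median. Low reads limit NHX3 throughout and HKT1 in stage A, where 3 reads equal 0.505 RPM.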
